A study of Mus musculus with 17 samples.

Results

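Gastrokine, pepsinogen, trefoil and related genes, grouped here as stomach lining genes, were examined in mouse stem cell lines of the extraembryonic endoderm. This is the layer that covers the early embryo and forms the yolk sac. The 8 genes Gkn1, Gkn2, Pga5, Psca, Dpcr1, Anxa13, Tff1 and Tff3 were taken by symbol from the 24015 genes listed for each library. They had been chosen for very large rises over fibroblasts in these same data, so their difference from fibroblasts is given below as a description without a test. Of the 8 genes, 7 had at least 1 read in some library. Tff1 had 0 counts in all 17 libraries, which goes against the basis on which it was chosen.

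All libraries came from CD-1 mouse cells, and 5 groups were sequenced. Induced XEN cells (iXEN), which arise when fibroblasts are reprogrammed, gave 4 libraries in XEN medium and 4 in ESC medium, numbered 1, 2, 6 and 9 in each. XEN cells, established as extraembryonic endoderm stem cell lines, gave 3 libraries in XEN medium and 3 in ESC medium, numbered 1, 2 and 7 in each. Both kinds of line were first grown through 10 passages in ESC medium. Another 5 passages followed, in XEN medium for some cultures and in ESC medium for the others. Fibroblasts of the mouse embryo (MEF), cells of its connective tissue, gave 3 libraries after 3 passages in MEF medium. The labels name no transgene or allele, and nothing beyond the library numbers ties a library to a derivation or an animal.

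The stomach lining is covered by surface mucous cells, which secrete a protective gel of mucin and small proteins. Gastrokines (Gkn1, Gkn2) and the trefoil factor Tff1 are such secreted proteins, and in humans GKN2 binds TFF1. Tff3 is another secreted protein of the trefoil family. Deeper in the glands, chief cells secrete pepsinogen, the precursor of the protease pepsin, of which Pga5 encodes a form. Psca is a glycolipid-anchored surface protein of the Ly6 family found in stomach epithelium, Dpcr1 is a mucin-like protein now named Mucl3, and Anxa13 is an annexin of epithelial cells that binds membranes in the presence of calcium. Extraembryonic endoderm and gut endoderm share transcription factors of the GATA, FOXA and SOX families.

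Promoter sequences are shown for the neighbouring genes Gkn1 and Gkn2, whose levels ran together across the lines, for Gkn3, which lies next to them and had almost no reads, and for Dpcr1, whose levels ran closest to theirs among the other genes of the 8. These are the 250 bases before the annotated transcription start, 5′ to 3′ on the gene's own strand, from RefSeq on GRCm38.p6. Capitals mark matches on either strand to NGATAN with A or T as its first base and A or G as its last, the letters that GATA factors are known to bind.
Gkn1, chr6:87350916-87351165, minus strand: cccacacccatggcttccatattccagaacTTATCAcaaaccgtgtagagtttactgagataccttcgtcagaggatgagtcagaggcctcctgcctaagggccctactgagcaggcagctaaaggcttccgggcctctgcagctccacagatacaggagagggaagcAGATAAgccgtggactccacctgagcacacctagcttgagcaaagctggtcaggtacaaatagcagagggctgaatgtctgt
Gkn2, chr6:87373115-87373364, plus strand: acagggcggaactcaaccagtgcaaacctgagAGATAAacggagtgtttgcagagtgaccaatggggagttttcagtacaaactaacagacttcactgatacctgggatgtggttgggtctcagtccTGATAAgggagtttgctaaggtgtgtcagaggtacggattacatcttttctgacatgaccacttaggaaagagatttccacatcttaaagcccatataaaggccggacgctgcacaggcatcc
Dpcr1, chr17:35643696-35643945, minus strand: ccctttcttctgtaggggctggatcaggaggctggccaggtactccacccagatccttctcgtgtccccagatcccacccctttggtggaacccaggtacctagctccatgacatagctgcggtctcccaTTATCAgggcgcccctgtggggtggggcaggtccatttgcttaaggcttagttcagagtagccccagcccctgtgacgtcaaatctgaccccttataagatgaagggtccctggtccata
Gkn3, chr6:87388936-87389185, minus strand: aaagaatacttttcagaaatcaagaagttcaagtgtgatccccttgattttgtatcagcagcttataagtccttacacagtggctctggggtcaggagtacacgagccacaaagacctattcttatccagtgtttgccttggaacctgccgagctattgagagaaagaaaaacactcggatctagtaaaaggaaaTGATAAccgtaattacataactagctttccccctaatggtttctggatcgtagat
Of the 8 genes, 3 (Gkn1, Gkn2 and Dpcr1) had an entry in the promoter table, Dpcr1 under the symbol Mucl3. The GATA letters began 220 and 82 bases before the start of Gkn1, 218 and 123 bases before that of Gkn2, 120 bases before that of Dpcr1 and 55 bases before that of Gkn3. They were present in 8718 of 32851 promoters of this length, or 26.5%. The FOXA letters TGTTTNC with A or G at N, on either strand, were present 206 bases before the start of Gkn2 and 120 bases before that of Gkn3, and in 7.29% of all promoters. TATAAA, also searched on both strands and not overlapping the other letters, was present 29 bases before the start of Gkn2 and in 12.4% of all promoters. Gkn3 held GATA and FOXA letters while being almost silent, and Gkn1 and Dpcr1 held GATA but no FOXA letters. Whether factors bind these letters or act through them was not tested.

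Counts assigned to genes came to between 20071567 and 45914262 per library, and 3 counts, used here as the floor of detection, corresponded to between 0.0589 and 0.138 CPM, counts scaled to a library of a fixed size. A list of 15 XEN core genes, such as Gata4 and Sox17, summed to between 30400 and 60300 CPM in iXEN cells in XEN medium, between 75600 and 126000 CPM in iXEN cells in ESC medium, between 22000 and 61400 CPM in XEN cells in XEN medium, between 14400 and 165000 CPM in XEN cells in ESC medium and between 8730 and 8930 CPM in MEF. Between 11 and 14 of the 15 rose over MEF in each of the 4 endoderm groups (edgeR, adjusted p under 0.05). Of all genes tested, 11.4% to 23% rose in these groups. Fibroblast transcripts were not absent from every endoderm library. The collagen gene Col1a1 reached 393 and 391 CPM in iXEN libraries 2 and 9 in XEN medium, and 2400 and 137 CPM in XEN libraries 1 and 2 in ESC medium. It was at 7.77 CPM or less in the other 10 endoderm libraries and at 12900 to 17300 CPM in MEF. The matrix gene Postn was at 189 and 0.0579 CPM in those iXEN libraries and at 489 and 0.806 CPM in those XEN libraries, against 1010 to 2420 CPM in MEF.

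**Figure D1:**
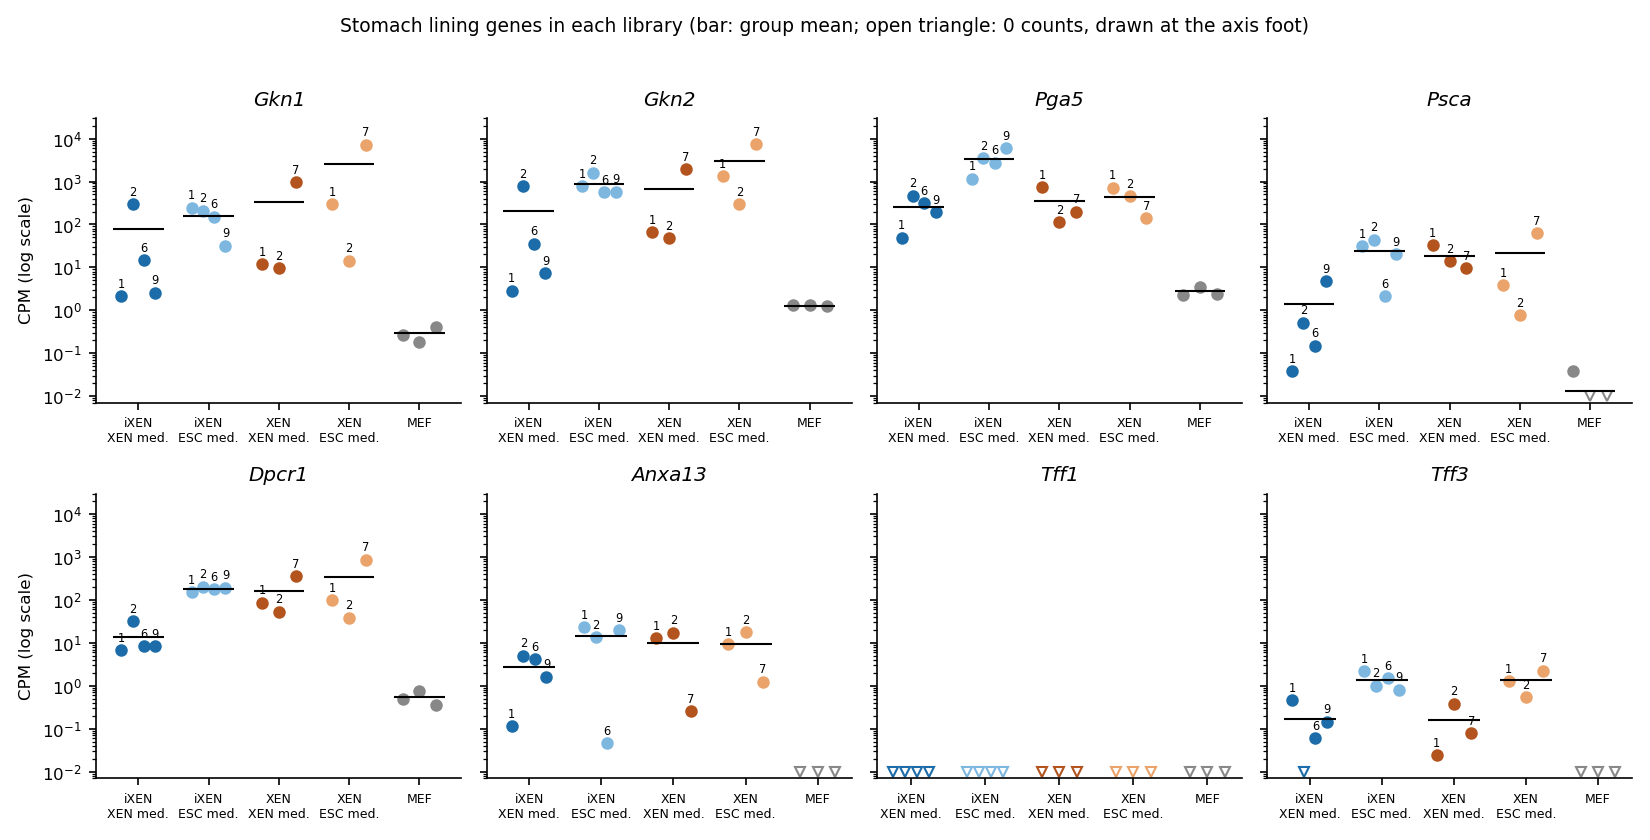
CPM (log axis) of each stomach lining gene in every library, with library numbers beside the points, bars at group means and open triangles at the foot of the axis for libraries with 0 counts. Gkn1 ran between 2.16 and 292 CPM in iXEN cells in XEN medium and between 14.4 and 7280 CPM in XEN cells in ESC medium, while Dpcr1 in iXEN cells in ESC medium lay between 150 and 205 CPM, and Tff1 was at 0 everywhere.

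The gastrokines ranged most widely of the set in CPM in the endoderm libraries. Gkn1 was at 2.16, 292, 14.6 and 2.58 CPM in iXEN libraries 1, 2, 6 and 9 in XEN medium, and at 248, 208, 152 and 31.9 CPM in the same numbers in ESC medium. In XEN libraries 1, 2 and 7 it was at 12.1, 9.49 and 965 CPM in XEN medium, and at 295, 14.4 and 7280 CPM in ESC medium. MEF held 0.271, 0.188 and 0.412 CPM. Library 2 was the high one among iXEN cells in XEN medium, library 7 was the high one among XEN cells in both media, and every endoderm library was above every MEF library. Gkn2 was at 2.89, 777, 35.5 and 7.44 CPM in iXEN cells in XEN medium and at 774, 1610, 564 and 579 CPM in iXEN cells in ESC medium. In XEN cells it was at 66.2, 48.3 and 1910 CPM in XEN medium and at 1350, 297 and 7460 CPM in ESC medium, against 1.32, 1.32 and 1.24 CPM in MEF. The same libraries were high for both gastrokines, and the 4 endoderm groups overlapped for each. In XEN library 7 in ESC medium, Gkn2 and Gkn1 ranked 4 and 5 among all genes by counts and together took 1.33% of all gene counts. They took 0.319% in XEN library 7 in XEN medium.

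Pga5 had its high values in another group. It was at 49.5, 466, 310 and 192 CPM in iXEN libraries 1, 2, 6 and 9 in XEN medium and at 1160, 3520, 2760 and 6080 CPM in iXEN cells in ESC medium. XEN cells held 749, 115 and 199 CPM in XEN medium and 713, 454 and 140 CPM in ESC medium, and MEF held 2.28, 3.54 and 2.42 CPM. All 4 iXEN libraries in ESC medium were above the other 13 libraries, and Pga5 ranked 52, 15, 17 and 10 among all genes by counts in them. XEN library 7, the high library for the gastrokines, had the lowest Pga5 of the XEN cells in ESC medium. To compare levels between genes, CPM were divided by the length of the annotated exons in kilobases. On that scale Gkn2 was above Gkn1 in 14 of 14 endoderm libraries, by 1.63 to 32.8 times. Pga5 had the highest level per kilobase of the 8 genes in 8 of these libraries and Gkn2 in the other 6, among them all 3 of XEN cells in ESC medium.

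Dpcr1, the mucin-like gene, was even across iXEN cells in ESC medium and uneven elsewhere. It was at 6.84, 32.3, 8.3 and 8.25 CPM in iXEN cells in XEN medium and at 150, 205, 178 and 193 CPM in iXEN cells in ESC medium. XEN cells held 86.3, 53.6 and 354 CPM in XEN medium and 98.2, 38.8 and 871 CPM in ESC medium, and MEF held 0.503, 0.753 and 0.353 CPM. The coefficient of variation (SD over mean) of Dpcr1 was 0.13 in iXEN cells in ESC medium, against 0.588 for Gkn1 and 0.562 for Gkn2 in the same libraries. The 4 iXEN libraries in XEN medium were below all other endoderm libraries.

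Psca and Anxa13 were less abundant. Psca was at 0.038, 0.517, 0.15 and 4.78 CPM in iXEN cells in XEN medium, with library 9 alone above 1 CPM, and at 31.1, 44.5, 2.17 and 20.1 CPM in iXEN cells in ESC medium. XEN cells held 33.3, 14 and 9.48 CPM in XEN medium and 3.9, 0.761 and 61.6 CPM in ESC medium, and MEF held 1 count in 3 libraries. Psca of iXEN libraries 1 and 6 in XEN medium was near the floor of detection. Anxa13 was at 0.114, 5.04, 4.24 and 1.62 CPM in iXEN cells in XEN medium and at 23.1, 13.8, 0.0461 and 19.4 CPM in iXEN cells in ESC medium. It was at 12.9, 17.2 and 0.255 CPM in XEN cells in XEN medium and at 9.27, 17.5 and 1.25 CPM in XEN cells in ESC medium, and had 0 counts in MEF. XEN library 7 and iXEN library 6 in ESC medium were the low ones for Anxa13, and library 7 had the lowest Anxa13 of the XEN cells in either medium.

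The trefoil genes were the weakest of the set. Tff3 was at 0.456, 0, 0.0602 and 0.145 CPM in iXEN cells in XEN medium and at 2.23, 0.999, 1.48 and 0.816 CPM in iXEN cells in ESC medium. XEN cells held 0.0245, 0.385 and 0.0785 CPM in XEN medium and 1.28, 0.537 and 2.27 CPM in ESC medium, and MEF held 0 counts. Every library in ESC medium was above every library in XEN medium for Tff3, within a range that ended at 2.27 CPM. With 0 counts, Tff1 cannot have been above the floor of 0.0589 to 0.138 CPM in these libraries.

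Relative to MEF, on which the genes were chosen, the folds differed widely between libraries. Mean Gkn1 was 268, 551, 1130 and 8710 times the MEF mean in iXEN cells in XEN medium, iXEN cells in ESC medium, XEN cells in XEN medium and XEN cells in ESC medium, in that order. Single libraries ran from 7.45 times (iXEN library 1 in XEN medium) to 25100 times (XEN library 7 in ESC medium). Gkn2 was 159, 684, 524 and 2360 times, Pga5 was 92.6, 1230, 129 and 159 times, and Dpcr1 was 25.9, 339, 307 and 626 times the MEF mean in the same order of groups. The order of the groups was thus not the same for the 4 genes, with XEN cells in ESC medium first for the gastrokines and Dpcr1 and iXEN cells in ESC medium first for Pga5. Psca, with 1 count in MEF, had ratios of 123 (95% counting interval 21.8 to 4890), 2410 (432 to 95100), 1580 (284 to 62600) and 2580 (463 to 102000). Against a floor of 3 counts over the MEF group, Anxa13 was at least 86.5, 420, 262 and 223-fold higher and Tff3 at least 4.06, 37, 4.27 and 44.3-fold higher. These intervals and bounds cover counting error only. Together the 8 genes took up to 1.43% of gene counts in an endoderm library (XEN library 7 in ESC medium), against 0.000441% to 0.000565% in MEF.

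All endoderm libraries were above all MEF libraries for 5 of the 8 genes in iXEN cells in XEN medium and for 7 of the 8 in each of the other 3 groups. Psca and Tff3 overlapped MEF in iXEN cells in XEN medium. Groups likewise did not overlap for 51.3% of all genes tested in iXEN cells in XEN medium, 54.6% in iXEN cells in ESC medium, 63.4% in XEN cells in XEN medium and 53.3% in XEN cells in ESC medium. Among all genes tested, 32.6% were called in iXEN cells in XEN medium against MEF, 46.7% in iXEN cells in ESC medium, 47.5% in XEN cells in XEN medium and 25% in XEN cells in ESC medium, and nothing is read from the members' count beside these shares because the members were chosen on this contrast. The 4 comparisons share the MEF libraries. Between endoderm lines and MEF, the kind of cell, its medium and its passages all differ and cannot be told apart. Nor can a smaller share of cells that hold a transcript be told apart from less of it per cell in such bulk libraries.

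Whether the medium changed these genes was asked within each cell type. The genes were not chosen on that contrast, but the same XEN and iXEN libraries entered the choice, so a gene high in the libraries of 1 medium could be favoured by it and these tests are not fully independent of it. In iXEN cells, the point estimates of all 7 detected genes were lower in XEN medium than in ESC medium, and none passed the threshold with edgeR's quasi-likelihood test over 12920 genes, of which 0% were called. Pga5 averaged 254 ± 177 CPM in XEN medium and 3380 ± 2050 CPM in ESC medium (SD, n = 4 each), a log2 fold change of -3.70 (SE 0.728, 95% interval -5.33 to -2.07) with an edgeR adjusted p of 0.0581. Dpcr1 averaged 13.9 ± 12.2 CPM in XEN medium and 182 ± 23.7 CPM in ESC medium (SD, n = 4 each), a log2 fold change of -3.68 (SE 0.54, -4.89 to -2.47) with the same edgeR adjusted p of 0.0581. For Pga5, Dpcr1 and Tff3, the 4 libraries in XEN medium all lay below the 4 in ESC medium, a separation seen for 12% of all genes tested. Pga5 and Dpcr1 stood just outside the threshold of 0.05, and their side of it depended on the tool. DESeq2 called 1637 genes in this comparison where edgeR called 0 (3018 at an unadjusted p under 0.05), and among them Pga5 (adjusted p = 1.27e-05), Dpcr1 (1.55e-08), Psca (0.00839) and Tff3 (0.0182).

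The remaining genes differed less clearly between media in iXEN cells. Psca averaged 1.37 ± 2.28 CPM in XEN medium and 24.5 ± 17.9 CPM in ESC medium (SD, n = 4 each), with a log2 fold change of -4.09 and an SE of 1.38 (edgeR adjusted p = 0.133). For Tff3 the log2 fold change was -3.07 (-5.32 to -0.82, edgeR adjusted p = 0.127) and Anxa13 one of -2.33 (SE 1.31, edgeR adjusted p = 0.313). For Gkn1 and Gkn2 the log2 fold changes were -1.03 (SE 1.36) and -2.07 (SE 1.42), with edgeR adjusted p-values of 0.681 and 0.405, and a single library weighed heavily in both. iXEN library 2 in XEN medium held 292 CPM of Gkn1, above all 4 libraries in ESC medium, while the other 3 in XEN medium held at most 14.6 CPM. Without that library the log2 fold changes were -4.64 for Gkn1 (edgeR adjusted p = 0.0492), -5.84 for Gkn2 (0.0422), -4.18 for Pga5 (0.0423) and -4.53 for Dpcr1 (0.00165), and 346 genes were called. The same library held Col1a1 and Postn. Without the 3 libraries with the most Col1a1 (iXEN libraries 2 and 9 in XEN medium and XEN library 1 in ESC medium), Dpcr1 was the 1 gene called, at -4.60 (edgeR adjusted p = 0.0164). Leaving out iXEN library 6 in ESC medium gave 416 called genes, with Pga5 at -3.81 (edgeR adjusted p = 0.0474) and Dpcr1 at -3.71 (0.032).

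In XEN cells no gene was called between media either, 0% of 13241 genes (746 at an unadjusted p under 0.05, and 89 called by DESeq2, none of them among the 8). Tff3 averaged 0.163 ± 0.194 CPM in XEN medium and 1.36 ± 0.869 CPM in ESC medium (SD, n = 3 each), a log2 fold change of -3.11 (SE 1.14, -5.81 to -0.41, edgeR adjusted p = 0.8), and was the 1 gene of the 8 whose media did not overlap, as for 12.5% of all genes tested. Gkn1 and Gkn2 had log2 fold changes of -2.99 (SE 2.40, edgeR adjusted p = 0.822) and -2.21 (SE 1.69, edgeR adjusted p = 0.82). The numbers were taken to pair the XEN libraries, and both gastrokines were lower in XEN medium in 3 of 3 numbers. Gkn2 in XEN medium was 0.0489, 0.162 and 0.257 times its level in ESC medium for XEN libraries 1, 2 and 7. For Gkn1 these ratios were 0.0409, 0.66 and 0.133. Tff3 was also lower for each number, while the remaining detected genes were mixed. Ratios were 8.53, 18.4 and 0.154 for Psca and 1.05, 0.254 and 1.42 for Pga5. Dpcr1 had 0.879, 1.38 and 0.407, and Anxa13 had 1.39, 0.986 and 0.204. How many of all genes were lower for every number was not counted, so nothing is read from this agreement. Fitting the numbers as a block called no gene. Dpcr1 (-1.07), Pga5 (-0.33), Psca (-0.26) and Anxa13 (0.10) had log2 fold changes smaller than their SEs of 1.22, 0.843, 1.37 and 1.37. The interval for Pga5, -2.33 to 1.67, does not show that its level was the same in both media.

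**Figure D2:**
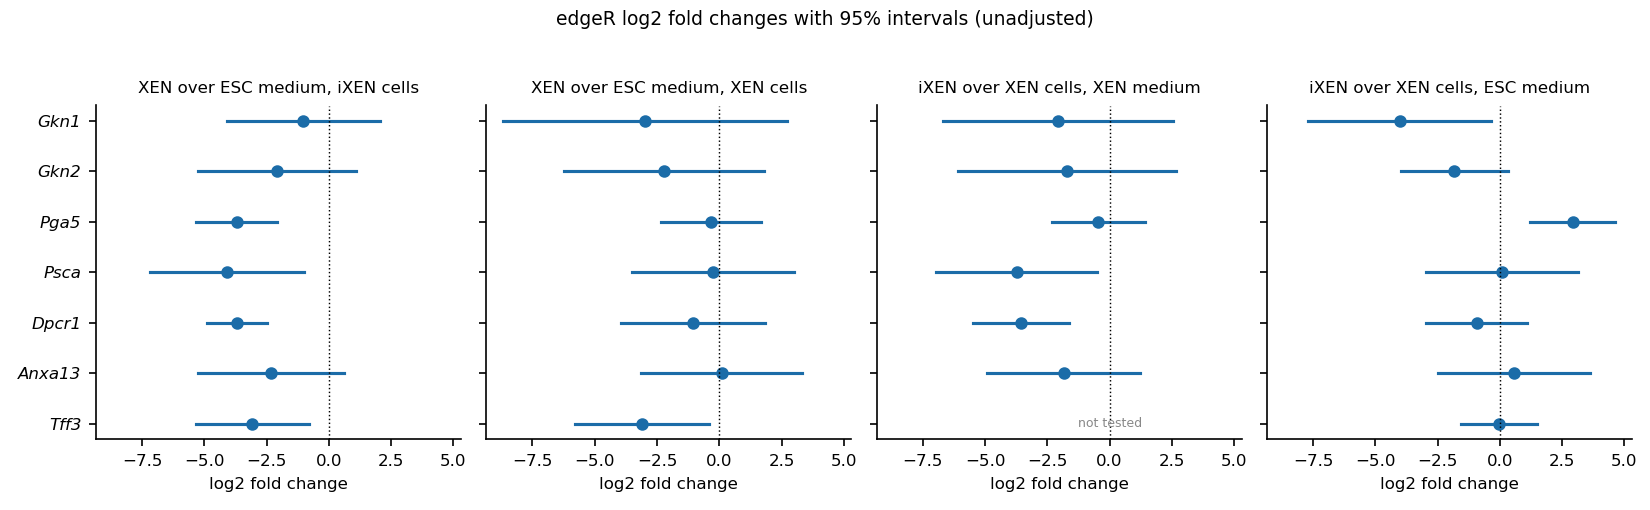
Log2 fold changes of the stomach lining genes with 95% intervals of the edgeR fit, for XEN over ESC medium in either cell type and for iXEN over XEN cells in either medium. The intervals of Dpcr1, Pga5, Psca and Tff3 lie below 0 for the medium in iXEN cells, as do those of Tff3 for the medium in XEN cells, of Dpcr1 and Psca for iXEN over XEN cells in XEN medium and of Gkn1 in ESC medium. That of Pga5 lies above 0 for iXEN over XEN cells in ESC medium, and no adjusted p was under 0.05.

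The difference between the media effects of iXEN and XEN cells was tested directly as an interaction over the 14 endoderm libraries. It called no gene of 14357 (0%, with 2131 at an unadjusted p under 0.05, 488 called by DESeq2 and none of the 8 among them). The largest estimates among the 8 genes were -3.83 for Psca (SE 2.10, edgeR adjusted p = 0.395) and -3.38 for Pga5 (SE 1.18, edgeR adjusted p = 0.249), followed by Dpcr1 at -2.64 (SE 1.32, edgeR adjusted p = 0.367). A medium effect particular to iXEN cells was therefore not shown for any of these genes.

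iXEN cells were then set against XEN cells in the same medium. In XEN medium, 0% of 13263 genes were called (544 at an unadjusted p under 0.05, and 137 called by DESeq2), and the point estimates of the 6 genes tested were all lower in iXEN cells. For 3 of them the direction rested on a single XEN library. Without the XEN 7 libraries the log2 fold changes of Gkn1 and Gkn2 were 2.89 and 1.89, and without XEN library 1 that of Pga5 was 0.7. Among the iXEN libraries, library 2 held 292 CPM of Gkn1 and 777 CPM of Gkn2, against at most 14.6 and 35.5 CPM in the others. Leaving out 1 library at a time, estimates ran from -5.72 to 2.89 for Gkn1 and from -5.51 to 1.89 for Gkn2. Dpcr1 averaged 13.9 ± 12.2 CPM in iXEN cells (n = 4) and 165 ± 165 CPM in XEN cells (n = 3), a log2 fold change of -3.56 (SE 0.838, -5.48 to -1.63) with an edgeR adjusted p of 0.985. Psca had one of -3.73 (SE 1.40, edgeR adjusted p = 0.985). Libraries of the 2 cell types did not overlap for Dpcr1 and Psca, as for 4.49% of all genes tested, and DESeq2 called Dpcr1 (adjusted p = 0.00481). Tff3 was left out of this comparison by the filter on low counts.

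In ESC medium, 0% of 12944 genes were called between iXEN and XEN cells (1770 at an unadjusted p under 0.05, and 529 called by DESeq2). Pga5 was the gene of the 8 with the clearest separation, at 3380 ± 2050 CPM in iXEN cells (n = 4) and 435 ± 287 CPM in XEN cells (n = 3). Its log2 fold change was 2.92 (SE 0.748, 1.20 to 4.64) with an edgeR adjusted p of 0.315, and DESeq2 called it (adjusted p = 0.00191). It was the 1 gene of the 8 whose groups did not overlap, as for 9.93% of all genes tested. For Gkn1 the log2 fold change was -4.03 (SE 1.61, edgeR adjusted p = 0.355), which rested on XEN library 7, and was 0.01 without the XEN 7 libraries. Gkn2 likewise had -1.84 (SE 0.934, edgeR adjusted p = 0.401) with those libraries and 0.06 without them. Psca (0.09), Anxa13 (0.58) and Tff3 (-0.03) had log2 fold changes smaller than their SEs of 1.33, 1.33 and 0.667.

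Other genes of the stomach and gut were read against MEF, leaving out the 8 genes themselves. Of 22 transcription factors known from stomach and foregut, 12 of 15 tested rose in iXEN cells in XEN medium, 15 of 16 in iXEN cells in ESC medium, 12 of 15 in XEN cells in XEN medium and 10 of 13 in XEN cells in ESC medium, with median log2 fold changes of 6.42, 7.35, 6.62 and 7.38 beside 0.06, 0.03, 0.02 and -0.03 for all genes tested. Of all genes tested, 17.7%, 20.8%, 23% and 11.4% rose in these groups. In iXEN cells in ESC medium, the zinc finger factor Gata4 rose by 9.81 (SE 0.331, edgeR adjusted p = 6.15e-07) on the log2 scale. The nuclear receptor Hnf4a and the epithelial factor Elf3, each with 2 counts in MEF, had ratios of 1330 (95% counting interval 369 to 11000) and 994 (275 to 8210). Sox2, which specifies the stomach in the embryonic gut, was the 1 regulator called lower. It fell by 5.98 in iXEN cells in ESC medium (SE 0.552, edgeR adjusted p = 6.12e-05). In XEN cells in XEN medium it fell by 6.95 (SE 1.06, edgeR adjusted p = 0.00355). Sox2 was not called lower in the other groups, where its libraries differed widely. Among iXEN cells in XEN medium the median was 0.0559 CPM and the highest library held 48.2 CPM. XEN cells in ESC medium had a median of 3.04 CPM and at most 7.25 CPM. MEF held between 1.66 and 3.8 CPM of Sox2.

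Surface mucous genes were mostly too low to be tested. Of 15, only 2, 9, 3 and 3 passed the filter in iXEN cells in XEN medium, iXEN cells in ESC medium, XEN cells in XEN medium and XEN cells in ESC medium. Of these, 1, 7, 2 and 1 rose over MEF and none fell, beside 17.7%, 20.8%, 23% and 11.4% of all genes tested that rose. Genes with next to no counts in MEF pass the filter only through the endoderm libraries, so they could hardly fall and were likely to rise. Neither the rises nor the lack of falls is therefore read as a result, here or for such genes in the other lists. The edgeR p-values given for such genes carry the same limit. In iXEN cells in ESC medium, the gastric claudin Cldn18 was at least 72.2-fold higher than in MEF, which had 0 counts (edgeR adjusted p = 0.0197). The gastric mucin Muc5ac, with 1 count in MEF, had a ratio of 367 (95% counting interval 65.5 to 14500, edgeR adjusted p = 0.00936). Anxa10, a further annexin, had a ratio of 104 (18.3 to 4120, edgeR adjusted p = 0.0231), and the galectin Lgals2 rose by 6.28 on the log2 scale (SE 1.02, edgeR adjusted p = 0.00131). The count of 7 became 2 without iXEN library 1, 2 or 9 in ESC medium or in 1 fit over all 17 libraries. In XEN cells in ESC medium the count of 1 became 5 with DESeq2 or in 1 fit over all 17 libraries, 6 without XEN library 2 and 0 without any of the 3 MEF libraries. The count of 1 in iXEN cells in XEN medium also became 0 without any of them.

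XEN library 7 carried most of the surface mucous transcripts. The 15 genes summed to 374 CPM in XEN library 7 in XEN medium and 945 CPM in ESC medium, against 2.01 to 44.1 CPM in the other 12 endoderm libraries and 2.47 to 4.7 CPM in MEF. Anxa10 was at 80.7 and 239 CPM, the aspartic protease Ctse at 84 and 231 CPM and Cldn18 at 156 and 391 CPM in XEN library 7 in XEN and in ESC medium, against at most 3.86, 6.3 and 4.2 CPM in the other 12. Both libraries numbered 7 were above the other 12 endoderm libraries for 8 of the 15 surface mucous genes and for Gkn1, Gkn2 and Dpcr1 among the 8 genes, beside 6.1% of all 24015 genes. The libraries numbered 7 also had the lowest XEN core sums of the endoderm libraries, 22000 and 14400 CPM, and held Gata4 at 414 and 351 CPM.

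**Figure D3:**
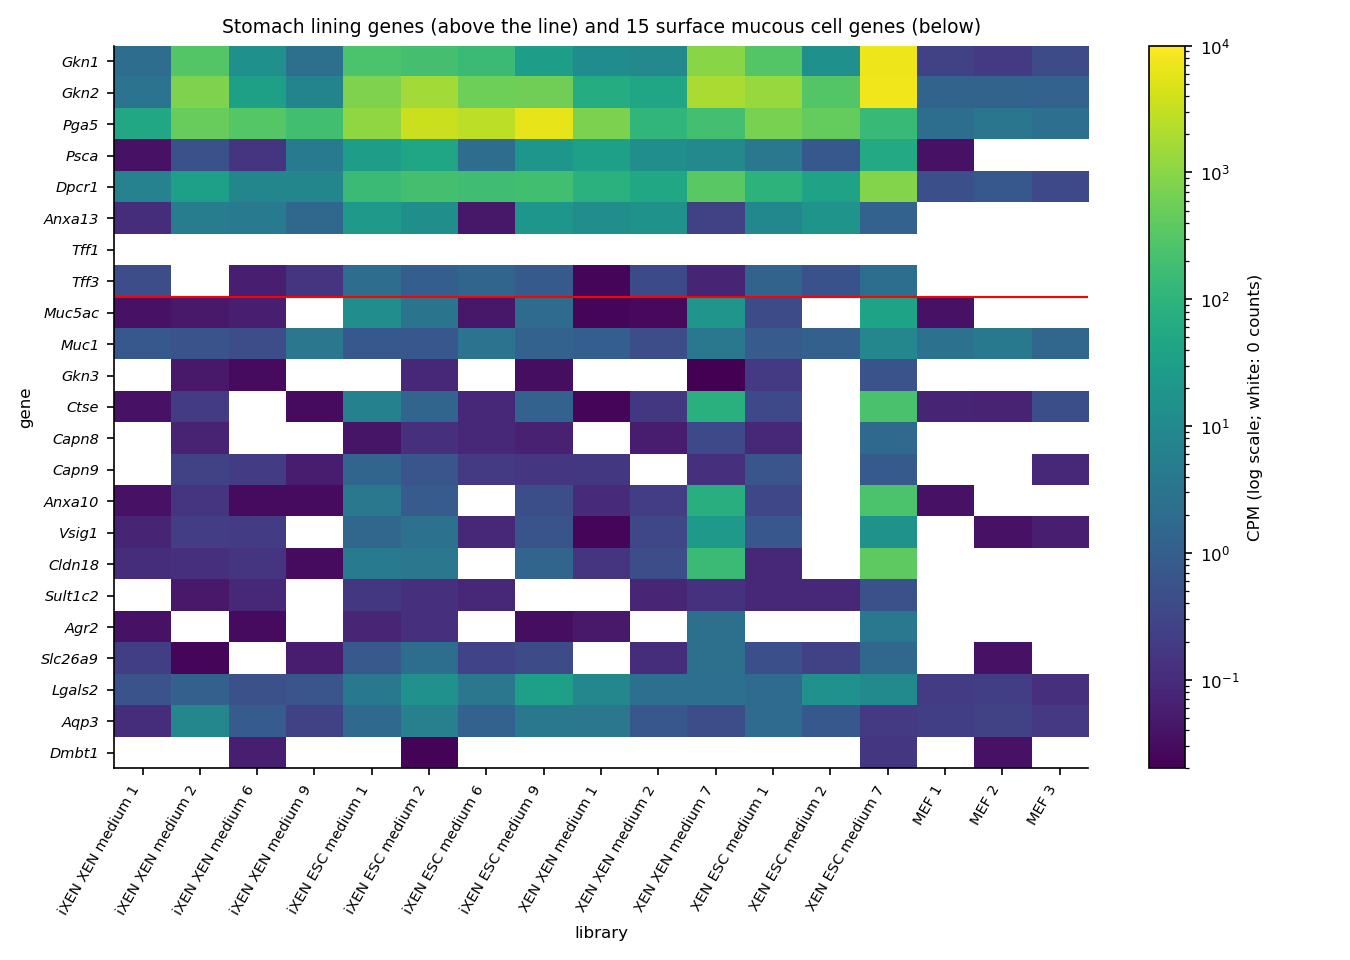
CPM of the 8 stomach lining genes (rows above the red line) and of 15 stomach surface mucous genes (rows below it) in each of the 17 libraries (columns), on a log colour scale with white for 0 counts. In the XEN libraries numbered 7, Ctse, Anxa10 and Cldn18 lie between 80.7 and 391 CPM, against at most 6.3 CPM in the other 12 endoderm libraries.

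Markers of the other stomach cell types were mostly too low to be tested. Of all genes tested, 17.7%, 20.8%, 23% and 11.4% rose in the order of groups used above, and 14.9%, 25.9%, 24.5% and 13.7% fell. The counts below stand beside these shares. Of 12 neck and chief cell genes, 4, 5, 4 and 4 were tested in iXEN cells in XEN medium, iXEN cells in ESC medium, XEN cells in XEN medium and XEN cells in ESC medium. Of these, 1 rose and none fell in iXEN cells in XEN medium, 2 rose and 2 fell in iXEN cells in ESC medium, and 1 rose and 2 fell in XEN cells in either medium. The pepsinogen Pgc rose in all 4 groups, with ratios to MEF (2 counts) of 211, 450, 261 and 552 in the order of groups used above, while Muc6, the gland mucin, fell by 1.50 in iXEN cells in ESC medium (SE 0.474, edgeR adjusted p = 0.0309). Of 12 parietal and endocrine cell genes, 4, 3, 3 and 2 were tested, and 1 rose and none fell, 1 rose and 1 fell, 1 rose and 2 fell, and none rose and 1 fell. The one that rose was Hdc, which makes histamine, by 5.01 in iXEN cells in XEN medium (SE 0.954, edgeR adjusted p = 0.00857). Among the untested genes, Atp4b, a subunit of the gastric proton pump, had 0 counts in MEF and between 0.0653 and 8.2 CPM in iXEN cells in ESC medium. Its median there was 0.176 CPM, so the bound of at least 87.7-fold higher over the group rested mainly on a single library. Lipf, the gastric lipase, had 0 counts in MEF and at most 0.861 CPM in XEN cells in ESC medium, with a median of 0 CPM. Its bound of at least 11.5-fold higher over the group thus rested on a single library. Of 23 intestinal genes (8, 10, 7 and 6 tested), none rose and 4 fell, 4 rose and 4 fell, 2 rose and 3 fell, and none rose and 3 fell. Lgr5, a stem cell receptor that MEF held at 51.7 to 84.5 CPM, was among those that fell in each group. It fell by 8.02 in iXEN cells in ESC medium (SE 0.392, edgeR adjusted p = 2.15e-06). In that group, where 4 rose and 4 fell, the intestinal genes Fcgbp and Fabp2 were higher than in MEF. MEF had 3 counts of Fcgbp and 1 of Fabp2. The ratios were 191 (counting interval 65.1 to 927) for Fcgbp and 165 (29.2 to 6530) for Fabp2. Genes so low in MEF carry the limit given above, so these ratios are not read as a result.

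Relatives of the 8 genes differed from family to family. Their counts stand beside 17.7%, 20.8%, 23% and 11.4% of all genes tested that rose, in the same order of groups. The shares that fell were 14.9%, 25.9%, 24.5% and 13.7%. Of 11 annexins other than Anxa13 (10, 11, 10 and 10 tested), none of those tested rose in iXEN cells in XEN medium or in XEN cells in either medium. Anxa10 alone rose in iXEN cells in ESC medium, where 5 fell, Anxa1 by 5.41 (SE 0.532, edgeR adjusted p = 8.47e-05). In XEN cells Anxa10 had a median of 0.22 CPM in XEN medium and 0.321 CPM in ESC medium, but reached 80.7 and 239 CPM in library 7. Of 18 Ly6 family genes other than Psca (8, 9, 8 and 10 tested), 2 rose and 1 fell, 3 rose and 3 fell, 2 rose and 2 fell, and 4 rose and 2 fell in the 4 groups. Of 9 relatives in the trefoil, gastrokine and pepsinogen families, 3, 5, 4 and 5 were tested. Of these, 2, 3, 3 and 3 rose and none fell, with median log2 fold changes of 3.64, 4.34, 5.96 and 6.79. Those that rose were the aspartic proteases Pgc and Bace2 in every group and Napsa in 3 of them. Gkn3 stayed at 0.574 CPM or less in every library and Tff2 at 2.02 CPM or less.

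Across the 14 endoderm libraries the 8 genes did not vary as a single group. Spearman's rho of CPM was 0.943 between Gkn1 and Gkn2, 0.842 between Gkn2 and Dpcr1, and 0.732 both between Gkn1 and Dpcr1 and between Psca and Dpcr1. Pga5 had rho of 0.253 to 0.437 with the other genes detected, and Anxa13 had -0.06 with Gkn1. These are descriptions of 14 libraries that share cell lines, media and depth, and they carry no test.

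**Figure D4:**
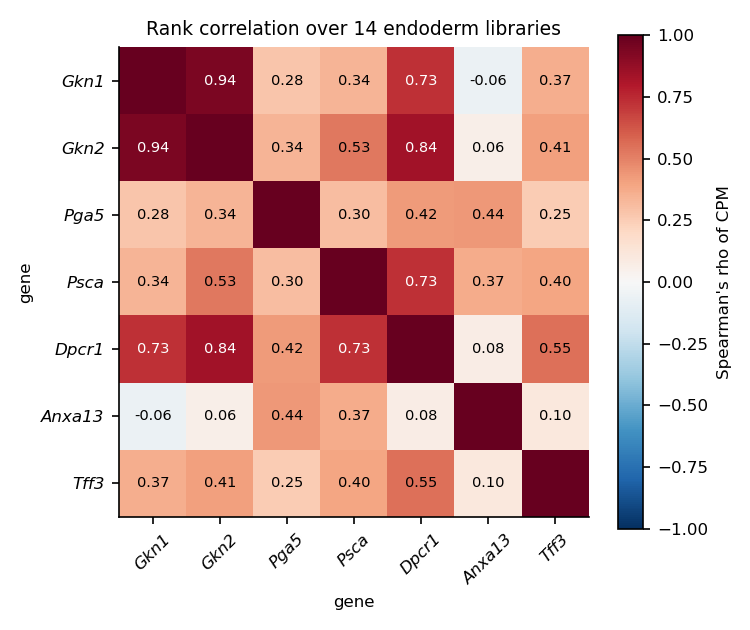
Spearman's rho of CPM between the detected stomach lining genes over 14 endoderm libraries. Gkn1, Gkn2 and Dpcr1 form the block of high values (0.73 to 0.94), and Anxa13 is near 0 against both gastrokines.

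Among 12243 genes with a mean of at least 1 CPM in the endoderm libraries, the 3 with the pattern most like Gkn1 were Apba1 (rho 0.943), Pnliprp1 (0.931) and Igsf5 (0.928), and those most like Gkn2 were Stap2 (0.96), Igsf5 (0.959) and Ttc39a (0.952). Igsf5 thus stood near both gastrokines. Pga5 ran closest to Atg13 (0.96), Rapgefl1 (0.934) and Vps39 (0.93), and Dpcr1 to Colq (0.952), Fras1 (0.947) and C9 (0.943). Psca ran closest to Apob (0.855), Prkca (0.855) and Kank1 (0.842), Anxa13 to Twsg1 (0.93), Gm6756 (0.912) and Sord (0.908), and Tff3 to Gdf9 (0.855), Krt23 (0.798) and Dhrs3 (0.776). No gene appears in the nearest 3 of more than 1 of the 8 genes other than Igsf5.

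Gkn1, Gkn2 and Gkn3 lie next to each other in the gene order of RefSeq, with Antxr1 and Bmp10 on either side. High reads were limited to Gkn1 and Gkn2 within that stretch. Antxr1, a receptor of fibroblasts and other cells, averaged 14.2, 18.6, 16.9 and 27 CPM in the 4 endoderm groups, against 187 CPM in MEF, and Bmp10 was at 0.186 CPM or less in every library. The trefoil genes Tff1, Tff2 and Tff3 also lie side by side, and of these Tff1 had 0 counts while Tff2 and Tff3 reached 2.02 and 2.27 CPM.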

How the data were processed

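Messenger RNA was extracted with Trizol and prepared with the TruSeq mRNA kit, per the labels' protocols. The deposited files hold whole-number read counts per gene, made by the authors. The submitters' processing notes name HTSeq 0.6.1, FastQC 0.11.3, Trimmomatic 0.32, TopHat2 2.0.12 and build mm9. Neither annotation nor strand setting is given in the sources used here, so reads of overlapping or antisense genes, and of near-identical copies, cannot be assigned with certainty. Lines of the counter itself (no feature, ambiguous, not unique) made up 20.8% to 33.1% of each file and entered neither library sizes nor tests.

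Groups were taken from the labels. No pair of libraries of a group agreed within sampling noise (chi-square per degree of freedom 43.4 to 1220). The series calls them biological replicates, and nothing says that they came from separate derivations, so p-values measure only the spread between these libraries. The labels give no date or batch. Same-numbered XEN libraries deviated together from their group means (correlations 0.24, 0.377 and 0.635, all over 0.1, the limit set), so the numbers were taken to pair the XEN libraries. This pairing is clear for number 7 and less so for 1 and 2, since library 1 in XEN medium correlated at 0.428 with library 2 in ESC medium.

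CPM were computed with TMM factors (0.863 to 1.16) over all 17 libraries. Each of 9 comparisons was fitted on its own libraries with edgeR 4.0.16 in R 4.3.3 (filterByExpr, minimum count 10 and minimum total 15, TMM, two-sided quasi-likelihood test, Benjamini-Hochberg adjustment over all genes tested). Called, rose and fell mean an adjusted p under 0.05. SEs were derived from the log2 fold changes and their F statistics. The script was tested on simulated counts. Where MEF had 0 counts, the fold is a bound against 3 counts over the group, and with 1 to 3 counts a ratio with an exact 95% interval, without the spread between libraries. Reads carry no molecular identifiers. Exon lengths and gene order came from GRCm38 annotation (GENCODE and RefSeq), another build than that of the counts.

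The 8 genes and the gene lists were chosen with earlier results of these data known. The lists (231 symbols, all found, Chia as Chia1) rest on general knowledge, and a few genes belong to more than 1 list. All 8 genes are named, with the 3 genes most like each by Spearman's rho, and from a list at most 4 called genes with the largest log2 fold changes, chosen per list and comparison, plus Col1a1 and Postn. A gene that this rule reaches is not reported here. Outside that rule, Ctse, Sox2, Sox17, Gkn3, Tff2, Antxr1, Bmp10, Atp4b and Lipf were named after their values were seen. Fabp2 and Fcgbp, given with the intestinal genes, were also named with their values known. Alternatives were DESeq2 1.42.0, its size factors, no filter, 1 fit over all 17 libraries, a replicate block, leaving out each library, and leaving out the XEN 7 libraries. Leaving out the libraries with fibroblast collagen was added after seeing the data.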

Additional observations from a re-analysis of the deposited data

Results flagged for a closer look

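In 4 of 14 sets of 4 iXEN libraries looked at (7 detected genes, 2 media), 1 library lay far from the other 3. About 1 set in 20 would be flagged by chance if the values were normally distributed, which was not tested for these CPM. The flags of iXEN library 2 fell on genes whose levels ran together (Gkn1, Gkn2 and Dpcr1), so they are not separate events. In XEN medium, iXEN library 2 held 292 CPM of Gkn1 (the other 3 held 2.16 to 14.6 CPM), 777 CPM of Gkn2 (2.89 to 35.5 CPM) and 32.3 CPM of Dpcr1 (6.84 to 8.3 CPM). It also held Col1a1 at 393 CPM and Postn at 189 CPM. The part of these transcripts in the gastrokine values was not tested, and MEF held at most 0.412 CPM of Gkn1 and 1.32 CPM of Gkn2. In the same medium, iXEN library 9 held 4.78 CPM of Psca, against 0.038 to 0.517 CPM in the other 3, with Col1a1 at 391 CPM and at most 1 count of Psca in any MEF library.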

How the results depend on the processing

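Levels of the 8 genes kept within the spread of their group under plain totals and under DESeq2 size factors (66 of 66 values). Among refits of a gene's test, 433 kept direction and call, 15 turned an uncalled gene into a called one and 54 changed sign. With DESeq2, 89 genes were called between media in XEN cells, 1637 between media in iXEN cells, 529 between iXEN and XEN cells in ESC medium, 137 in XEN medium, 488 for the interaction and 5795 for XEN cells in ESC medium over MEF. In 1 fit over all 17 libraries, 330 genes were called between media in iXEN cells. Without the libraries with fibroblast collagen, 1 gene (Dpcr1) was called there and 7440 for iXEN cells in XEN medium over MEF. Without a filter on low counts, 5 genes were called between iXEN and XEN cells in ESC medium (Ccnd1, Pkp1, Prkcdbp, S100a4 and Slit3, all lower in iXEN cells), and 35 without the XEN 7 libraries. These genes were chosen after their values were seen.

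Leaving out 1 library at a time, calls between media in iXEN cells ran from 0 to 416, those between iXEN and XEN cells in ESC medium from 0 to 49, and those over MEF from 372 to 6056 (XEN cells in ESC medium), 3985 to 8965 (XEN cells in XEN medium), 5064 to 8081 (iXEN cells in ESC medium) and 1842 to 5663 (iXEN cells in XEN medium). The 49 came without XEN library 2 and 35 came without XEN library 7, both in ESC medium. Log2 fold changes that crossed 0 ran, for the medium in XEN cells, from -7.91 to 1.04 for Gkn1, -1.51 to 0.26 for Pga5, -0.95 to 2.96 for Psca, -2.30 to 1.23 for Dpcr1 and -0.50 to 0.88 for Anxa13. For iXEN over XEN cells in ESC medium they ran from -4.56 to 0.01 for Gkn1, -2.32 to 0.057 for Gkn2, -0.41 to 3.35 for Psca, -1.41 to 1.38 for Dpcr1 and -0.37 to 0.57 for Tff3. In XEN medium they ran from -5.72 to 2.89 for Gkn1, -5.51 to 1.89 for Gkn2 and -0.94 to 0.7 for Pga5. For the interaction they ran from -2.06 to 6.85 for Gkn1, -3.66 to 3.65 for Gkn2 and -1.16 to 1.55 for Tff3. No such sign change occurred for the medium in iXEN cells.

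Without the XEN 7 libraries, signs turned for Psca between media in XEN cells (3.26), for Gkn1 (0.01), Gkn2 (0.057), Dpcr1 (1.38) and Tff3 (0.57) between iXEN and XEN cells in ESC medium, for Gkn1 (2.89) and Gkn2 (1.89) in XEN medium and for Tff3 in the interaction (-0.87). Without the libraries with fibroblast collagen they turned for Pga5 between media in XEN cells (0.26), Psca between iXEN and XEN cells in ESC medium (-0.41), and Gkn1 (-0.78) and Gkn2 (-2.99) in the interaction. Tff3 turned in the interaction with no filter (-0.006). The causes were not tested.

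With the library number as a replicate block, 0 genes were called between media in either cell type, and 1 gene (Zfp575, named after its value was seen) for the interaction. Signs turned under the block for Psca (2.001) and Anxa13 (-0.54) between media in XEN cells and for Gkn1 (-0.65), Gkn2 (-1.98) and Tff3 (-0.046) in the interaction. The block changed no other call. In iXEN cells same-numbered libraries correlated at 0.144, 0.181, 0.122 and -0.035 in their deviations from the group means, so these share a number only. Depth limits Tff1, Tff3 and Psca, which lay within a few counts of the floor in several libraries.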
